A study of Mus musculus with 6 samples.

Results

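Imprinted genes, which are transcribed mainly from the copy inherited from one parent, were followed in mouse branchial-arch neural crest with and without intact Ehmt1 and Ehmt2. The members are 52 gene symbols, listed by name as known imprinted genes of the mouse. No measured value was part of the rule, but the list was chosen with earlier results of these data known. The deposited table, which holds 21006 symbols, lists 51 of the 52 members, and Peg13 was not analysed here. Of the 52, 24 are known as paternally expressed, 27 as maternally expressed, and Gnas gives rise to transcripts of both kinds.

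The libraries came from branchial arches of mouse embryos at E11.5, sorted for TdTomato, a red fluorescent protein. All 6 carried the reporter Rosa26 TdTomato/+ and the recombinase Wnt1-cre. The 3 DKO (double knockout) libraries were in addition Ehmt1f/f and Ehmt2f/f, and the 3 control libraries Ehmt1+/+ and Ehmt2+/+. Deletion is limited to cells in which Wnt1-cre, which is active in the dorsal neural tube and its neural crest, has acted. The labels call the replicates biological without saying whether a library holds 1 embryo or several, so p-values measure the spread between these samples.

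As background, imprinted genes lie in domains governed by an imprinting control region, a stretch of DNA that is methylated on only one parental chromosome. Many members govern growth: the paternally expressed Igf2 promotes it, and the maternally expressed Igf2r, Grb10 and Cdkn1c restrain it. EHMT1 (GLP) and EHMT2 (G9a) form the enzyme that mono- and dimethylates lysine 9 of histone H3, and in the placenta EHMT2 is known to help silence several imprinted genes on the paternal chromosome. The counts do not separate the parental alleles, so every value below is the sum of both alleles and none measures imprinting itself.

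Total counts ran from 23414466 to 44538260 per library. Levels are given as CPM, the usual depth-scaled count with library sizes adjusted by TMM, and fold changes as log2 of DKO over control. In replicates 1, 2 and 3, Ehmt2 stood at 124, 119 and 140.4 CPM in DKO and at 347, 359.7 and 358 CPM in control, and Ehmt1 measured 144, 133 and 168 CPM against 250.03, 259.7 and 268 CPM. Both targeted genes were thus lower in every DKO library (log2 fold change -1.47, SE 0.08, for Ehmt2 and -0.81, SE 0.10, for Ehmt1), with DKO replicate 3 the highest of its group for each. On the first principal component of all tested genes DKO replicate 3, at -12.3, was the DKO library closest to the control side; DKO replicates 1 and 2 were at -31.8 and -37.0. Calls of members are therefore given with and without DKO replicate 3.

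Imprinted genes were called at a share near that of all tested genes. Of 44 members with enough counts to be tested, 2 rose in DKO, the paternally expressed Ddc and Magel2, and 0 fell, by edgeR's quasi-likelihood test at an adjusted p below 0.05. The share called was 4.55%, against 3.01% of all 14555 tested genes (2.19% called higher and 0.818% called lower). Both calls were lost without any 1 of the libraries other than DKO replicate 3, and without DKO replicate 3 there were 3 higher and 1 lower, named with their domains below. The median log2 fold change was -0.07 over the tested members and -0.01 over all tested genes, and the median size of change, regardless of sign, was 0.16 and 0.15 respectively. The DKO and control libraries did not overlap for 9 of the 44 tested members (20.5%, against 27.2% of all tested genes), 4 of them higher and 5 lower in DKO. At an unadjusted p below 0.05 in the edgeR test there were also 9 of the 44 (20.5%, background 20.9%). The share called and the share at an unadjusted p below 0.05 are near the background, and the share without overlap is below it. In bulk libraries such as these, fewer cells of a type and less RNA per cell cannot be told apart.

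The other 7 members in the table had too few counts for the test. Slc22a2, Slc22a3, Ascl2 and Rasgrf1 had 4, 47, 25 and 7 counts over all 6 libraries, and Ins2, the insulin gene beside Igf2, had 11. Tspan32 had 30 counts in DKO and 8 in control; its level was 0.269, 0.137 and 0.313 CPM in DKO and 0.0895, 0.0449 and 0.103 CPM in control libraries, which do not overlap, but no test was made at so few counts. Snrpn was listed at 0 in every library, and so was Snurf, with which it shares 216 exon bases on the same strand. Snrpn encodes a splicing protein that many tissues make, so this 0 cannot be read as a lack of the transcript, since the way reads on both genes were counted is not given in the sources used here.

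Several members are among the most abundant transcripts of arch neural crest. To compare genes, CPM was divided by the length of each gene's exons in kilobases. In control libraries Nnat, a membrane proteolipid, stood highest of the members at 396.9 ± 60.2 CPM per kb (SD, n = 3). It was followed by Mest, a hydrolase-fold enzyme of the endoplasmic reticulum, at 274.0 ± 46.8, Igf2, a growth factor, at 244.9 ± 30.0, and Cdkn1c, an inhibitor of cyclin-dependent kinases, at 231.9 ± 16.6 CPM per kb. Grb10, an adaptor that dampens insulin and growth-factor receptor signalling, reached 177.2 ± 15.5 CPM per kb. The intervals of Mest, Igf2 and Cdkn1c overlap, so their order is not resolved. These 5 lie in the top 1% of 14220 tested genes with a known exon length, 9 members lie in the top 5%, and 18 lie in the lower 50%. Members together took 0.975% to 1.11% of all counts in a library.

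**Figure D1:**
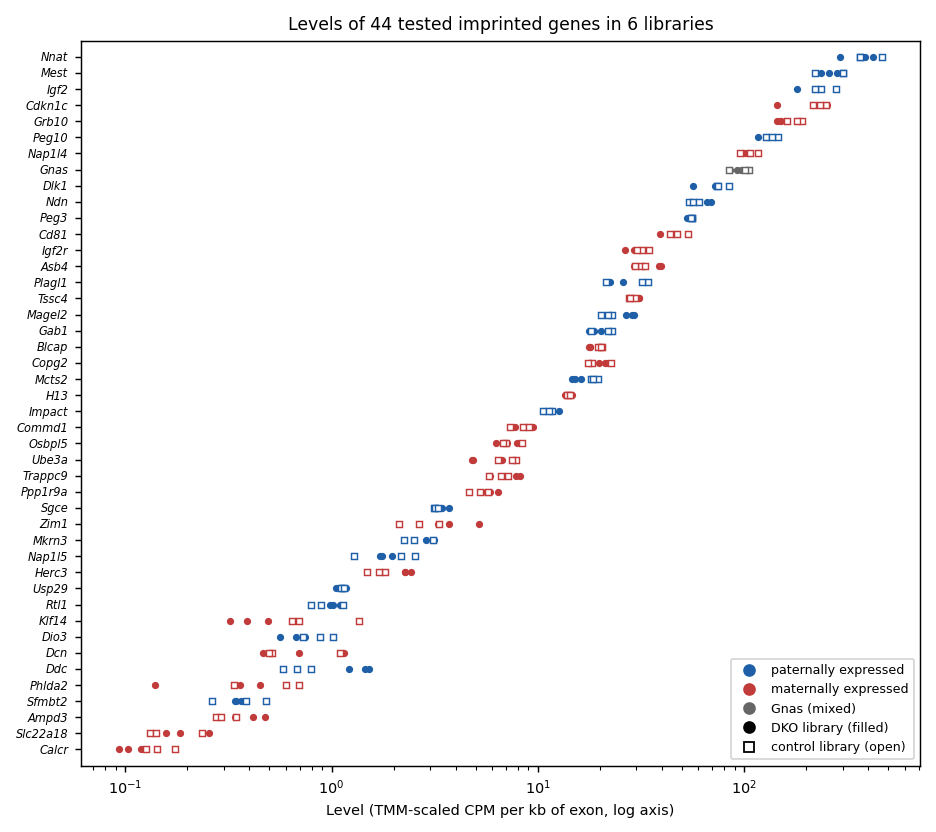
Level of each tested imprinted gene in CPM per kb of exon (log axis) in 6 libraries, with filled circles for DKO, open squares for control, blue for paternally expressed, red for maternally expressed and grey for Gnas. Levels span from below 1 to about the 396.9 CPM per kb of Nnat, and the 2 groups lie on top of each other for most genes.

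Both calls fell among the paternally expressed genes, while the medians of the 2 classes lay close to 0. Of 24 paternally expressed genes 20 were tested: 2 rose, 0 fell, 7 had a positive and 13 a negative fold change, and the median was -0.10. Of 27 maternally expressed genes 23 were tested: 0 were called, 12 were positive and 11 negative, and the median was 0.01. For comparison, 3.01% of all tested genes were called (2.19% higher and 0.818% lower), and 48.8% were positive. With only 2 calls, their split between the classes is not read as a difference. Summed over genes, paternally expressed members came to 5632 ± 238 CPM in DKO and 6096 ± 496 CPM in control, and the libraries overlap. For maternally expressed members the sums were 3364 ± 224 CPM (DKO) and 3723 ± 125 CPM (control; SD, n = 3 each), with 3424, 3553 and 3116 CPM in DKO against 3619, 3861 and 3689 CPM. Here the groups do not overlap. Grb10, described next, is the largest single term of that sum, with means of 1343 CPM in DKO and 1610 CPM in control. The sum without Grb10 was not taken, so the gap is not read as a fall of the class. The difference between the 2 classes was not tested, and the sign of the maternal median is negative when DKO replicate 1 (-0.01) or DKO replicate 2 (-0.04) is left out.

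**Figure D2:**
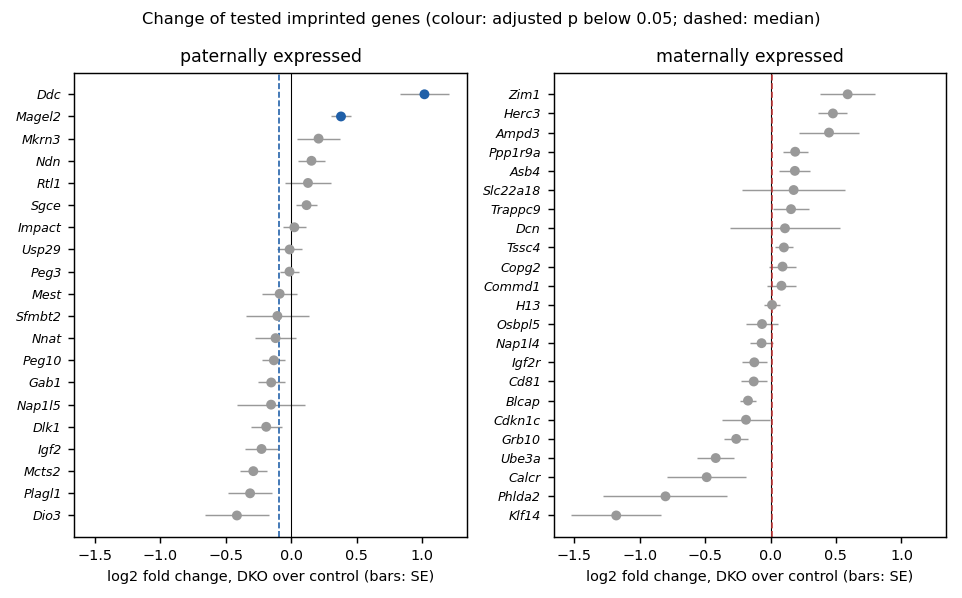
Log2 fold change of DKO over control for 20 paternally and 23 maternally expressed genes, ordered by size, with bars for the SE and a dashed line at the median of each class (-0.10 and 0.01). Colour marks the 2 genes past an adjusted p of 0.05, Ddc and Magel2, and the other points are grey.

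The Grb10 domain on chromosome 11 held the largest rise. Ddc (chr11:11814101-11898144, minus strand) encodes aromatic L-amino acid decarboxylase, the enzyme that makes dopamine and serotonin from their precursors, and its paternal expression is known from the embryonic heart. Grb10 (chr11:11930499-12037428, minus strand) is its maternally expressed neighbour in most embryonic tissues and is paternally expressed in neurons. The 250 bases before each RefSeq start of these genes are shown because the outer start of Grb10 is far richer in CpG than the others. The stretches are from RefSeq on GRCm38.p6, 5′ to 3′ on the minus strand, with every CpG in capitals.
Ddc, outer start, chr11:11898145-11898394: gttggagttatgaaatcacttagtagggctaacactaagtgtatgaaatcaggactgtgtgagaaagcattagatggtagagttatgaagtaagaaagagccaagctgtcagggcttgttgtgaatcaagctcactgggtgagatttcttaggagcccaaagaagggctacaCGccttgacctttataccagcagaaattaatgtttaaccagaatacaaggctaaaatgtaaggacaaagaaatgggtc
Ddc, inner start, chr11:11890409-11890658: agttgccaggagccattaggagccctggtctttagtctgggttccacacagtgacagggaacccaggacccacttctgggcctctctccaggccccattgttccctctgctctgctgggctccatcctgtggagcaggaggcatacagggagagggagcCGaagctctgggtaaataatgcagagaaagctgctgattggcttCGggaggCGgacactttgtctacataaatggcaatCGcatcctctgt
Grb10, outer start, chr11:12037421-12037670: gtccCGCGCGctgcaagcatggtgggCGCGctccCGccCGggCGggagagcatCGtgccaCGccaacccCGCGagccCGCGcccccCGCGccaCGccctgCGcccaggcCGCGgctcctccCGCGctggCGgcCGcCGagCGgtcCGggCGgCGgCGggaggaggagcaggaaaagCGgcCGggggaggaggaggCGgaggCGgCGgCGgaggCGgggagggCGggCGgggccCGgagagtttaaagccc
Grb10, inner start, chr11:12027972-12028221: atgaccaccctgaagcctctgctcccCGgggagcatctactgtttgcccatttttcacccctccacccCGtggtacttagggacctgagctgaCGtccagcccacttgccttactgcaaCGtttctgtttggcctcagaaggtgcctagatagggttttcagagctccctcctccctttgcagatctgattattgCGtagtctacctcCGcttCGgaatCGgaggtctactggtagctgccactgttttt

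The Ddc stretches hold 1 and 4 CpG dinucleotides, and the Grb10 stretches 40 and 8. No read in these data tells which start a transcript used. Ddc measured 6.76, 6.49 and 5.43 CPM in DKO and 3.04, 2.60 and 3.56 CPM in control libraries. Every DKO library lay above every control library, and Ddc rose about 2.03-fold (edgeR adjusted p = 0.0299 for a log2 fold change of 1.02, SE 0.19). Its level is low, at 778 counts over the 3 DKO and 298 over the 3 control libraries. Of the markers of catecholamine-making neurons 0 of 6 were called, against 3.01% of all tested genes. Their markers summed to 27.0 to 63.0 CPM in DKO against 30.1 to 60.8 CPM in control.

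Grb10 measured 1368, 1356 and 1305 CPM in DKO and 1460, 1739 and 1632 CPM in control libraries. The groups do not overlap, but the difference did not pass the test (edgeR adjusted p = 0.161 for a log2 fold change of -0.26, SE 0.09). DESeq2 called it lower (adjusted p = 0.0323). The log2 ratio of Ddc to Grb10 within a library was -7.75 ± 0.130 in DKO and -9.02 ± 0.292 in control (SD, n = 3 each), a difference of 1.27. Its exact permutation p of 0.1 is the smallest that 3 against 3 can give.

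In the Snrpn domain of chromosome 7, which corresponds to the human Prader-Willi and Angelman region, the paternally expressed Magel2 rose. Magel2 (chr7:62376979-62381640, plus strand) is an adaptor of an E3 ubiquitin ligase involved in protein recycling at endosomes. It measured 132, 124 and 136 CPM in DKO and 93.4, 106 and 101 CPM in control libraries, with no overlap (edgeR adjusted p = 0.0372 for a log2 fold change of 0.38, SE 0.08). Its means were 130.5 ± 6.19 and 100.3 ± 6.497 CPM (SD, n = 3 each). The other paternally expressed genes beside it did not pass the test. Ndn (chr7:62348277-62349928), a MAGE-family protein that restrains proliferation in neurons, measured 255, 244 and 201 CPM in DKO and 199, 208 and 223 CPM in control, and DKO replicate 3 lay within the control range. Mkrn3 (chr7:62417593-62420153), a ubiquitin ligase, measured 8.03, 7.88 and 7.33 CPM in DKO and 7.94, 5.70 and 6.39 CPM in control, which overlap. Their log2 fold changes were 0.15 (SE 0.10) for Ndn and 0.21 (SE 0.16) for Mkrn3. The log2 ratio of Magel2 to Ndn was higher by 0.23 in DKO, with overlapping libraries (exact permutation p = 0.2) and by 0.10 without DKO replicate 3, so a change of Magel2 relative to Ndn was not resolved.

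Magel2 and Mkrn3 face each other on opposite strands, and the 250 bases before each start are shown to compare the called gene with its uncalled neighbour. Both are from RefSeq on GRCm38.p6, 5′ to 3′ on the gene's own strand, with every CpG in capitals.
Magel2, plus strand, chr7:62376729-62376978: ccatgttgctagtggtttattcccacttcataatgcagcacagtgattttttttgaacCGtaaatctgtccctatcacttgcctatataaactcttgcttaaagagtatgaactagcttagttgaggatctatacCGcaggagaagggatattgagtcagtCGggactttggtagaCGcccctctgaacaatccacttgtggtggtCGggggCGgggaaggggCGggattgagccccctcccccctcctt
Mkrn3, minus strand, chr7:62420154-62420403: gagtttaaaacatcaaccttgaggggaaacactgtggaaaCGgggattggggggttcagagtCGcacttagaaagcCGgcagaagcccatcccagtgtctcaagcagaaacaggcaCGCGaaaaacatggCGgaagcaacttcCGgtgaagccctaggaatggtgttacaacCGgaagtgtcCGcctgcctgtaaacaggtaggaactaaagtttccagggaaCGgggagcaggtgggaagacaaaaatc

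The stretches hold 7 CpG dinucleotides for Magel2 and 10 for Mkrn3. Ube3a (chr7:59228750-59310837), the ubiquitin ligase that is maternally expressed in neurons, measured 99.6, 99.3 and 138 CPM in DKO and 162, 155 and 132 CPM in control libraries. DKO replicate 3 lay above control replicate 3, and Ube3a did not pass the test (edgeR adjusted p = 0.157 for a log2 fold change of -0.42, SE 0.14). Without DKO replicate 3 it fell by 0.59 (SE 0.10; edgeR adjusted p = 0.0170). Neuron markers summed to 901 to 983 CPM in DKO and 959 to 1183 CPM in control; the ranges overlap. Of 8 markers, 7 had a negative fold change (median -0.34). Apart and lower were 3 (Elavl4, Isl1 and Pou4f1), against 12.7% of all tested genes, and 1 (Pou4f1) was called lower, against 0.818%. The part of neuron content in these values was not tested.

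The calls of Ddc and Magel2 depended on having all 6 libraries or on leaving out DKO replicate 3. Without DKO replicate 3 Ddc (edgeR adjusted p = 0.0203) and Magel2 (0.0427) were called; without any one of the other 5 libraries neither was, with adjusted p from 0.0618 to 0.149 for Ddc and from 0.0590 to 0.168 for Magel2, while the fold changes stayed between 0.93 and 1.13 and between 0.34 and 0.43.

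Members that lie within another member of opposite parental expression, without a shared exon base, form 4 nested pairs, of which Peg13 within Trappc9 was not analysed here. Herc3 (chr6:58831455-58920398), a ubiquitin ligase known as maternally expressed in brain, measured 20.8, 20.6 and 22.2 CPM in DKO and 16.7, 13.5 and 15.5 CPM in control libraries. The groups do not overlap, and the difference missed the threshold (edgeR adjusted p = 0.0614 for a log2 fold change of 0.48, SE 0.11), while DESeq2 called it (adjusted p = 0.00651). The paternally expressed Nap1l5 (chr6:58905233-58907126), a histone-chaperone relative within Herc3 on the other strand, measured 3.23, 3.63 and 3.15 CPM in DKO and 4.67, 2.38 and 3.999 CPM in control, which overlap. The pair shares no exon base, and the log2 ratio of Nap1l5 to Herc3 was lower by 0.57 in DKO with no overlap of libraries.

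Mcts2 (chr2:152687148-152687946), a paternally expressed retrocopy in an intron of H13, measured 13.3, 13.8 and 14.7 CPM in DKO and 16.5, 17.8 and 16.9 CPM in control libraries. Its groups do not overlap (edgeR adjusted p = 0.163 for a log2 fold change of -0.29, SE 0.10). H13 (chr2:152669422-152708668), a signal peptide peptidase, measured 130, 128 and 120 CPM in DKO and 124, 124 and 126 CPM in control, so the host gene overlapped between the groups and the nested gene did not. As a retrocopy, Mcts2 may share reads with its parent gene.

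Blcap (chr2:157556362-157566361), which is maternally expressed in brain, measured 54.1, 54.5 and 54.2 CPM in DKO and 59.7, 61.9 and 61.8 CPM in control libraries. The 2 groups are tight and do not overlap, but the gap is small (edgeR adjusted p = 0.183 for a log2 fold change of -0.17, SE 0.06). Its nested partner Nnat, within Blcap on the other strand, measured 766, 706 and 532 CPM in DKO and 663, 853 and 662 CPM in control, which overlap (log2 fold change -0.12, SE 0.16).

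In the Mest domain of chromosome 6 the paternally expressed Mest (chr6:30733506-30748466) measured 1014, 928 and 1107 CPM in DKO and 868, 1183 and 1192 CPM in control libraries, which overlap. Its maternally expressed neighbour Copg2, a subunit of the coat of transport vesicles, had a log2 fold change of 0.09 (SE 0.10). Mest and Copg2 share 912 exon bases on opposite strands, 23.1% of those of Mest, so reads there may have been given to either or to none. Klf14 (chr6:30956021-30958990), a maternally expressed Kruppel-like transcription factor with no intron, measured 1.19, 1.51 and 0.983 CPM in DKO and 4.14, 1.97 and 2.12 CPM in control libraries. Its groups do not overlap, and at this level the test did not call it (edgeR adjusted p = 0.114 for a log2 fold change of -1.18, SE 0.34).

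The last 2 members with groups apart were Tssc4 and Calcr. Tssc4, a splicing-related protein of the Kcnq1 domain, measured 56.91, 56.97 and 54.65 CPM in DKO and 50.88, 54.51 and 51.65 CPM in control (log2 fold change 0.10, SE 0.07). The DKO minimum and the control maximum nearly touch. Calcr, the calcitonin receptor, measured 0.404, 0.365 and 0.469 CPM in DKO and 0.559, 0.494 and 0.684 CPM in control, on 52 and 56 counts (log2 fold change -0.49, SE 0.30).

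**Figure D3:**
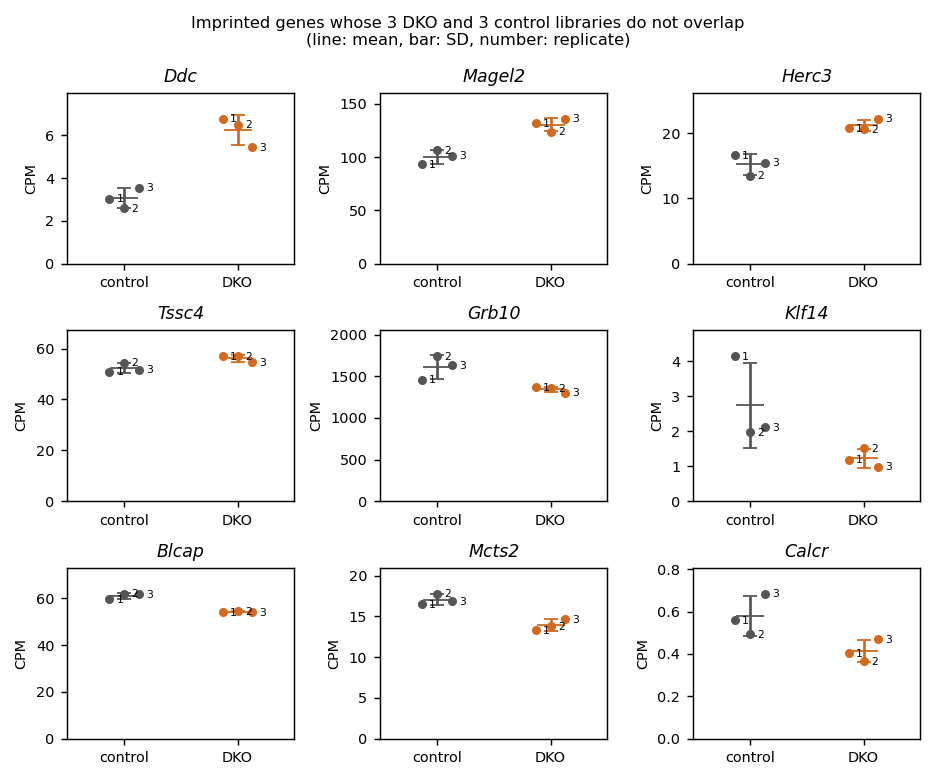
CPM of the 9 tested imprinted genes whose DKO and control libraries do not overlap, on axes from 0, with each library as a numbered point, a line at the mean and a bar for the SD. Ddc has a DKO mean 2.03 times its control mean and Klf14 means of 1.23 and 2.74 CPM, while those of Tssc4 are 56.2 and 52.3 CPM; only Ddc and Magel2 passed the test.

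In the Peg3 domain of chromosome 7 no gene was called. Peg3 (chr7:6703892-6730462), a zinc-finger protein, measured 703, 746 and 748 CPM in DKO and 742, 743 and 732 CPM in control libraries, a log2 fold change of -0.01 (SE 0.07) whose sign changed with the scaling. Usp29, which starts beside it on the other strand, also had a log2 fold change of -0.01 (SE 0.09), and the log2 ratio of Usp29 to Peg3 was -5.17 in both groups. The maternally expressed zinc-finger gene Zim1 (chr7:6674444-6696540) measured 26.6, 42.0 and 30.0 CPM in DKO and 26.7, 21.4 and 17.2 CPM in control. It did not pass the test (edgeR adjusted p = 0.173 for a log2 fold change of 0.59, SE 0.21), and 1 DKO library lay just under the highest control. The log2 ratio of Peg3 to Zim1 was 4.50 ± 0.309 in DKO and 5.10 ± 0.307 in control (SD, n = 3 each), with no overlap.

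Genes of the insulin-like growth factor axis were not called. Igf2 (chr7:142650768-142666816) measured 1264, 1302 and 1028 CPM in DKO and 1345, 1595 and 1265 CPM in control libraries (edgeR adjusted p = 0.334 for a log2 fold change of -0.23, SE 0.12). Igf2r (chr17:12682406-12769706), the receptor that carries IGF2 to lysosomes, measured 273, 306 and 247 CPM in DKO and 322, 297 and 281 CPM in control. The libraries overlap for both genes. Cdkn1c (chr7:143458339-143461059) measured 437, 514 and 295 CPM in DKO and 506, 475 and 438 CPM in control, with DKO replicate 3 lowest. Plagl1, a zinc-finger transcription factor known to raise Igf2 and Cdkn1c, measured 175, 202 and 173 CPM in DKO and 267, 249 and 168 CPM in control; 1 low control library gives the overlap (log2 fold change -0.31, SE 0.17). The H19 RNA, which shares enhancers with Igf2, was not analysed here.

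Members imprinted in the placenta number 12, and of the 8 with enough counts 0 were called, against 3.01% of all tested genes. At that share 8 genes are too few for the 0 to set them apart from other genes. In the Kcnq1 domain of chromosome 7 the maternally expressed Cd81, Nap1l4 and Osbpl5 had log2 fold changes of -0.13, -0.07 and -0.06. Phlda2, which limits placental growth, had only 44 counts in DKO and 61 in control (log2 fold change -0.80, SE 0.47), and Slc22a18 43 and 30. In the Igf2r domain of chromosome 17 the transporter genes Slc22a2 and Slc22a3 stayed near 0, at a mean of 0.0298 and 0.250 CPM in DKO and at 0 and 0.139 CPM in control. For Slc22a2, 3 counts, the limit that a count of 0 allows, correspond to 0.0671 to 0.135 CPM in a control library, above its DKO mean. A difference for Slc22a2 was thus not detectable at this depth, and Slc22a3, with 30 counts in DKO and 17 in control, was not tested. Igf2r, Slc22a2 and Slc22a3 lie 22.2 to 22.5 Mb from the floxed Ehmt2 on the same chromosome, and Sfmbt2 lies 14.4 Mb from Ehmt1, so alleles linked to the floxed genes cannot be told apart from the deletion there.

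In the remaining domains no member was called. In the Peg10 domain of chromosome 6, Peg10, a gene derived from a retrotransposon, measured 852, 774 and 872 CPM in DKO and 849, 977 and 911 CPM in control libraries (log2 fold change -0.13, SE 0.09). Sgce, the epsilon-sarcoglycan gene that starts beside it, had a log2 fold change of 0.12 (SE 0.08), Ppp1r9a 0.19 (SE 0.09) and Asb4 0.19 (SE 0.12). Asb4 was called higher when DKO replicate 3 was left out (log2 fold change 0.31; edgeR adjusted p = 0.0465). In the Dlk1-Dio3 domain of chromosome 12, Dlk1, a Notch-related transmembrane protein, measured 410, 423 and 318 CPM in DKO and 415, 478 and 421 CPM in control. Rtl1 was at 0.13 (SE 0.17) and Dio3, a thyroid hormone deiodinase, at -0.41 (SE 0.24) on the log2 scale. Gnas, which encodes the stimulatory G protein alpha subunit, measured 1077, 1030.1 and 954 CPM in DKO and 944, 1183 and 1129.99 CPM in control, which overlap (log2 fold change -0.09, SE 0.10). Trappc9, a subunit of a vesicle-tethering complex, measured 61.9, 64.99 and 46.7 CPM in DKO and 57.2, 45.8 and 52.6 CPM in control, which also overlap. Of the members outside domains and of Trappc9, the largest change was that of Ampd3, at 0.45 (SE 0.23), and none was called.

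Ratios within a library were then taken for pairs of 1 domain, since scaling cancels in them. Of 21 chosen pairs 17 could be compared. The libraries were apart for 5: Ddc to Grb10 was higher in DKO by 1.27, and Peg3 to Zim1, Nap1l5 to Herc3, Mcts2 to H13 and Peg10 to Sgce were lower by 0.60, 0.57, 0.30 and 0.25 on the log2 scale. Each has an exact permutation p of 0.1 (2-sided), the smallest 3 against 3 can give, and 0.34 after Benjamini-Hochberg adjustment over the 17 pairs, so no pair passed. Without DKO replicate 2 the difference of Peg10 to Sgce was -0.14. Among these 5, the ratio of the paternally to the maternally expressed gene was higher in 1 and lower in 3, and Peg10 and Sgce are both paternally expressed.

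**Figure D4:**
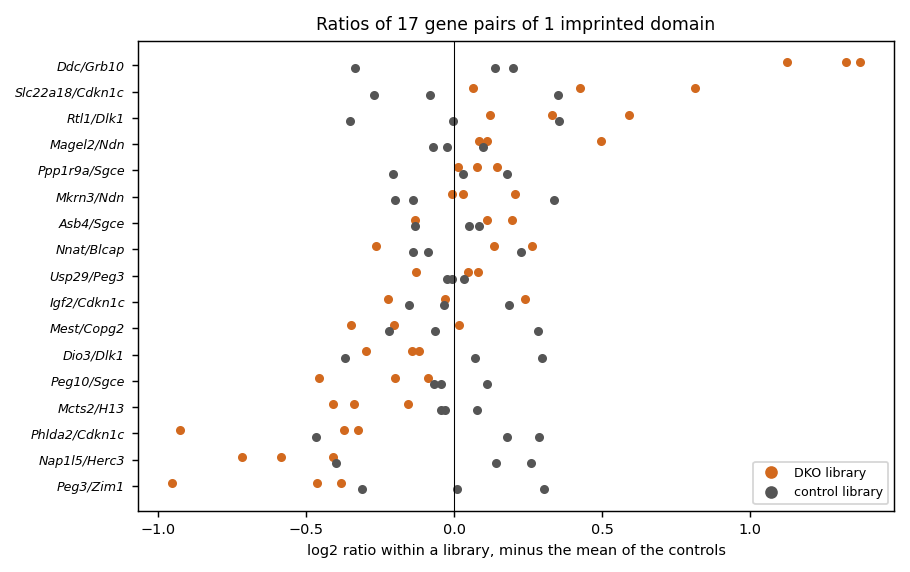
Log2 ratio of 17 gene pairs in each library, minus the mean of the controls, with orange points for DKO and grey for control. Ddc to Grb10 lies to the right in all 3 DKO libraries and Peg3 to Zim1, Nap1l5 to Herc3, Mcts2 to H13 and Peg10 to Sgce to the left, and the other 12 pairs overlap.

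Among the genes near members the calls were all in 1 direction. There were 154 tested genes, other than members, with a start site within 500 kb of a member's, and 9 were called higher (5.84%, against 2.19% of all tested genes) and 0 lower (background 0.818%). Leaving out DKO replicate 1 left 4 called higher, and leaving out DKO replicate 3 gave 15 higher and 4 lower. Most of them are expressed at a low level: 8 had a control mean under 10 CPM. Among neighbours under 10 CPM 8 of 55 (14.5%) were called higher, against 5% of the 4420 tested genes under 10 CPM. At 10 CPM or more it was 1 of 99 neighbours, against 0.967% of genes. No test of this difference was made.

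Near Mest lie genes of the carboxypeptidase A family, enzymes that trim proteins from the C-terminal end, and Cpa1 (log2 fold change 4.27) and Cpa4 (1.33) were called higher. Cpa1 rests on 37, 33 and 38 counts in DKO and on 2, 1 and 1 in control, so the size of its fold is loosely known. Cpa5, at 1.93, just missed (edgeR adjusted p = 0.0514). Cpa genes resemble one another, so reads may be split among them. Pon3, a lactonase near Asb4, measured 8.16, 7.81 and 6.91 CPM in DKO and 3.11, 2.92 and 2.97 CPM in control libraries, with no overlap (log2 fold change 1.34; edgeR adjusted p = 0.00474). Tnnt3, fast skeletal troponin T, lies 168 kb from Igf2 and rose by 2.60 on the log2 scale, and Shank2, a synaptic scaffold near Osbpl5, by 0.86. Plg near Slc22a3 (2.65), Zpbp near Ddc (1.38) and Ctsh near Rasgrf1 (1.11) were also called; Zpbp, Ctsh and Cpa5 were named after their values were seen. Plg had 28, 21 and 26 counts in DKO and 4, 1 and 4 in control, and it shares 420 exon bases with Slc22a3 on the other strand. Cpa1, Pon3, Tnnt3 and Shank2 were called without each library in turn; Cpa4 was lost in 3 of these 6 fits, Plg in 4, and Ctsh and Zpbp in 5.

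**Figure D5:**
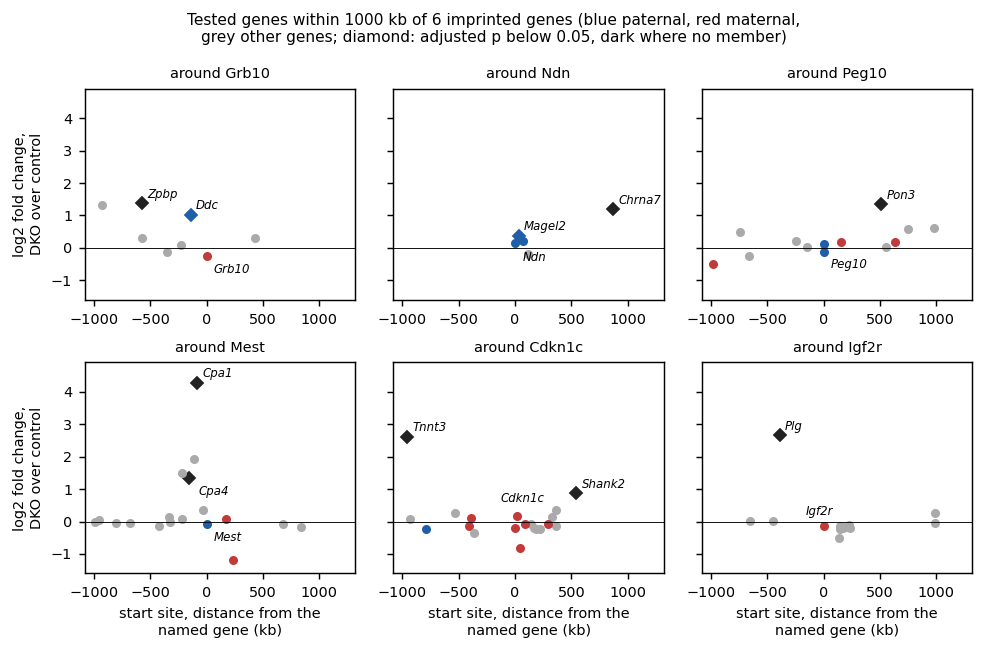
Log2 fold change of tested genes against the distance of their start site from Grb10, Ndn, Peg10, Mest, Cdkn1c and Igf2r in kb, with blue and red for paternally and maternally expressed members, grey for other genes and diamonds for an adjusted p below 0.05. Called genes such as Cpa1 (4.27) stand among members near 0. Chrna7, 866 kb from Ndn (log2 fold change 1.19), is outside the 500 kb rule and was named after its value was seen.

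Other lists give the setting. Of 41 other genes reported as imprinted 27 were tested and 2 rose, Pon3 and the phosphodiesterase gene Pde4d (log2 fold change 0.36; edgeR adjusted p = 0.046), with 0 lower (7.41%, against 3.01%). Pon3 is also among the called neighbours above, so this list and the neighbours share genes and are not separate results. Of 34 genes of imprint establishment and upkeep, such as DNA methyltransferases and their cofactors, 29 were tested and 0 were called. Trim28, the corepressor that binds imprinting control regions through ZFP57, was at -0.05, and Cbx5, a reader of methylated H3K9, at -0.31 on the log2 scale. Of these 29, 24 had a negative fold change, their median was -0.09, and 7 (24.1%) had groups apart, all lower in DKO, against 12.7% of all tested genes apart and lower. Their summed level was 6275 to 6665 CPM in DKO and 6741 to 7172 CPM in control, with no overlap.

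Markers of the cells that a sort can hold were read beside these results. All 10 markers of arch crest mesenchyme were detected, summing to 1761 to 2249 CPM in DKO and 2027 to 2442 CPM in control, which overlap. Glial markers summed to 259 to 272.1 CPM in DKO and 272.2 to 297.9 CPM in control, and endothelial markers to 25.1 to 29.2 against 20.1 to 22.7 CPM; both were apart, with 0 markers called in either. Yolk sac endoderm markers were apart too, at 9.81 to 13.5 CPM in DKO and 14.1 to 22.5 CPM in control. Ttr, 1 of the 4, is the largest term of that sum, with means of 7.71 CPM in DKO and 15.4 CPM in control. Apoa1 and Apob had log2 fold changes of 0.24 and -0.03. Afp was called higher, on 16, 14 and 15 counts in DKO and 2, 0 and 0 in control. Skeletal muscle markers, read beside Tnnt3, summed to 9.39 to 20.8 CPM in DKO and 5.93 to 10.9 CPM in control, which overlap, with 4 of 4 fold changes positive and 0 called. Of the melanocyte markers Tyr was called higher (log2 fold change 1.70), and their sums overlap. Erythroid markers varied within groups, at 12.3, 36.9 and 169 CPM in DKO and 102, 54.6 and 90.1 CPM in control. Over all tested genes 2.19% were called higher and 0.818% lower. The part of cell composition in the values of imprinted genes was not tested.

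RefSeq gave promoter windows, 250 bases before to 50 after a start, for 41 of the 52 members, 64 windows in all, leaving aside chromosome 18. The letters TGCCGC, the core of the site read by ZFP57, were searched on both strands and occur in 16 of the 64 (25.0%), against 18.6% of windows of tested genes. The cAMP response element TGACGTCA occurs in 2 (3.13%, against 2.89%), those of Peg3 and Usp29, which share 263 bases. The median number of CpG dinucleotides was 16.5 in member windows and 19 in windows of tested genes. A match describes letters only, and no match says nothing about a factor.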

How the data were processed

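RNA was measured in 3 DKO and 3 control libraries, grouped by their genotype labels. The authors deposited raw counts by gene symbol, as the values show, from stranded libraries per the labels. STAR 2.7.10a, Trim Galore and Picard and build mm10 are named in the submitters' processing notes. How reads were counted (program, strand, annotation, duplicates) is not given in the sources used here. The members and lists were chosen with earlier results of these data known.

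Counts were tested with edgeR 4.0.16 in R 4.3.3 (quasi-likelihood, robust, 2-sided, group as the sole term) after filterByExpr (minimum count 10, minimum total 15) and TMM scaling. Benjamini-Hochberg adjustment ran over 14555 genes, with calls below 0.05. An SE is the log2 fold change divided by the root of F. With 1 CPM worth 22.3 to 44.7 counts, levels under 1 CPM rest on few counts. Exon lengths and overlaps came from GENCODE M21 (GRCm38, the same assembly as mm10) and other coordinates from RefSeq GRCm38.p6, counted from 1. Pair ratios used a prior count of 2 and exact permutation tests over libraries. The rule for names gave library values to members that were called or had groups apart and to the most abundant per kb of each domain, fold changes or ranges to other members, and names to up to 6 called neighbours by adjusted p; library values of Mkrn3, Ube3a, Zim1 and H13 were added after they were seen. Another neighbour called is not reported here by name. The rule took, from the lists, called genes, or the 2 most abundant where none was called. The fit was tested on simulated data.

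The replicate numbers are shared between groups without a label that pairs them. The correlations of same-numbered libraries are given in the closing section. Alternatives were RLE scaling, library size alone, a filter of 1 CPM in 3 libraries, no filter, DESeq2 1.42.0, limma-voom (limma 3.58.1), a replicate block and each library left out; for the neighbours they were added after the data were seen.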

Additional observations from a re-analysis of the deposited data

How the results depend on the processing

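Ddc and Magel2 were the only members called higher under RLE scaling, library size alone, the 1 CPM filter, no filter, limma-voom and the replicate block. DESeq2 gave 3 members higher (Ddc, Magel2 and Herc3) and 1 lower (Grb10), and over all genes 624 higher and 482 lower; among neighbours 7 were lower. With the replicate block 196 genes were lower over all genes, and 1 neighbour was lower. Leaving out each library gave 0 to 3 members higher and 0 to 1 lower, 110 to 597 genes higher and 21 to 509 lower, and 4 to 15 neighbours higher and 0 to 4 lower. The lowest count of genes higher came without DKO replicate 1 and the highest without DKO replicate 3; the cause was not tested.

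Fold changes of single members were recomputed for those with groups apart, the most abundant per kb of each domain, Ube3a and Zim1. Of these, 4 changed direction in at least 1 alternative. Cdkn1c ran from -0.37 to 0.0075, Nap1l5 from -0.37 to 0.068, Nnat from -0.23 to 0.0196 and Peg3 from -0.029 to 0.0152 over the fits that leave out 1 library (Nnat was at 0.02 both without DKO replicate 3 and without control replicate 2). Peg3 was at 0.066 with library size alone and at 0.0030 with the 1 CPM filter. Library size alone moved the median of all genes from -0.01 to 0.07. The 5 pair differences with libraries apart kept their direction with a prior count of 0.5 and without each library; a p-value cannot pass in a design this small. Same-numbered libraries had correlations of 0.05, -0.03 and 0.36, so the numbers were not taken to pair them, and DKO replicate 2 correlated best with control replicate 1 (0.45). The members not tested for want of counts could show no call at this depth, apart from Snrpn, whose 0 cannot be read.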

Other observations

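Several abundant members were lower in DKO replicate 3 than in the other DKO libraries. Cdkn1c measured 295 CPM there and 437 and 514 CPM in the other DKO libraries, Nnat 532 against 766 and 706 CPM, Dlk1 318 against 410 and 423 CPM, and Igf2 1028 against 1264 and 1302 CPM. The same library had the highest sum of erythroid markers, 169 CPM against 12.3 and 36.9 CPM, and the lowest sum of arch mesenchyme markers, 1761 CPM against 2200 and 2249 CPM. Other abundant members were higher in that library than in the other DKO libraries: Mest at 1107 against 1014 and 928 CPM, and Peg10 at 872 against 852 and 774 CPM. Peg3, at 747.5 against 702.8 and 746.5 CPM, was nearly level with DKO replicate 2. These genes were picked after their values were seen.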
